A study of Arabidopsis thaliana with 8 samples.

Results

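Aldehyde dehydrogenases (ALDHs) were followed in Arabidopsis seedlings of line L20, which overexpresses the wheat basic leucine zipper (bZIP) transcription factor TabZIP6, and in wild type, before and after cold. The members were all probe sets (groups of short probes that read 1 transcript) that the platform annotation gives 1 gene whose symbol starts with ALDH and a digit. Of 13350 genes with a named probe set, 8 met this rule: ALDH7B4, ALDH2C4, ALDH6B2, ALDH10A8, ALDH10A9, ALDH22A1, ALDH3F1 and ALDH11A3. The 1 measured value in the rule is the mean level over 8 arrays: where a gene has several probe sets, its member was to be selected on the highest such mean, but each of the 8 genes had 1 probe set. Of 14 Arabidopsis ALDH loci looked for, the other 6 (ALDH2B4, ALDH2B7, ALDH3H1, ALDH3I1, ALDH5F1 and ALDH12A1) were on no named probe set and were not analysed here.

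ALDHs oxidise reactive aldehydes to carboxylic acids, with NAD+ or NADP+ as the electron acceptor. Some members act at a fixed step of metabolism, such as the breakdown of valine or the making of ferulic and sinapic acid. Others are known for removing aldehydes that form from lipids and polyamines when plants are dried, salted or chilled, and ALDH7B4 is a much used marker of that stress response.

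Whole seedlings aged 10 days and grown at 22 °C were used in all groups. The groups were line L20 after 6 h at 4 °C, L20 before cold, wild type (ecotype Col-1) after 6 h at 4 °C and wild type before cold, with 2 biological replicates and thus 2 Affymetrix arrays each. L20 is 1 transgenic line; the sources used here do not name the promoter that drives TabZIP6, and they give an ecotype for wild type only. How the replicates were kept apart is not stated, so p-values cover only the spread among these samples, which may be technical.

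The values are log2 signals normalized by the authors, and each difference below is a log2 difference with the standard error (SE) of limma's moderated test. A gene was called at a Benjamini-Hochberg adjusted p under 0.05 over 22746 probe sets. With 2 arrays against 2, an exact permutation test cannot go below p = 0.333, and the number of arrays limits the precision. One array stood apart: the upper quartile of replicate 1 of unchilled wild type was 6.28, against 6.46 to 6.64 in the other 7 arrays. All 8 ALDH genes were lower on that array than on replicate 2 of its group, as were 62.6% of all tested probe sets, and 5 of 8 were after quantile normalization. Its part in the differences before cold was not tested beyond the values given without it. Of the markers of green shoot, root, flower and maturing seed looked for, 1 of 15 was on a named probe set, the root hair expansin gene EXPA7 at 4.41 to 5.41, so the tissue could not be checked further. The 3 cold marker genes COR15A, COR47 and LTI30 were all called higher in chilled than in unchilled wild type, by 2.30, 2.25 and 6.16 on the log2 scale. With cold in L20 limma called 0 of the 3, with and without the replicate number as a block, and the differences were 0.52, -0.23 and 1.64. Unchilled L20 already stood above unchilled wild type for all 3, by 1.85, 2.45 and 4.61, and limma called COR47 and LTI30 with the block (adjusted p = 0.0371 and 0.0376) and 0 of 3 without it.

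No ALDH gene passed the test in any comparison, and the one call of the family came with the replicate number as a block, for ALDH6B2 in chilled wild type. In size, the differences before cold were led by ALDH7B4 and ALDH2C4, which were higher in unchilled L20 than in unchilled wild type, as the 3 cold markers were; how far the ALDH values go with those markers was not tested. In the fit without the block, ALDH2C4, ALDH7B4, ALDH6B2 and ALDH22A1 were the members lower in chilled than in unchilled L20 at an unadjusted p under 0.05. In wild type ALDH6B2 met that limit, and the chilled arrays of both ALDH6B2 and ALDH22A1 lay below the unchilled ones. In whole seedlings, fewer cells that use a gene and less RNA per cell cannot be told apart. After cold the lines lay within 0.24 of each other on the log2 scale for all 8 genes.

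**Figure D1:**
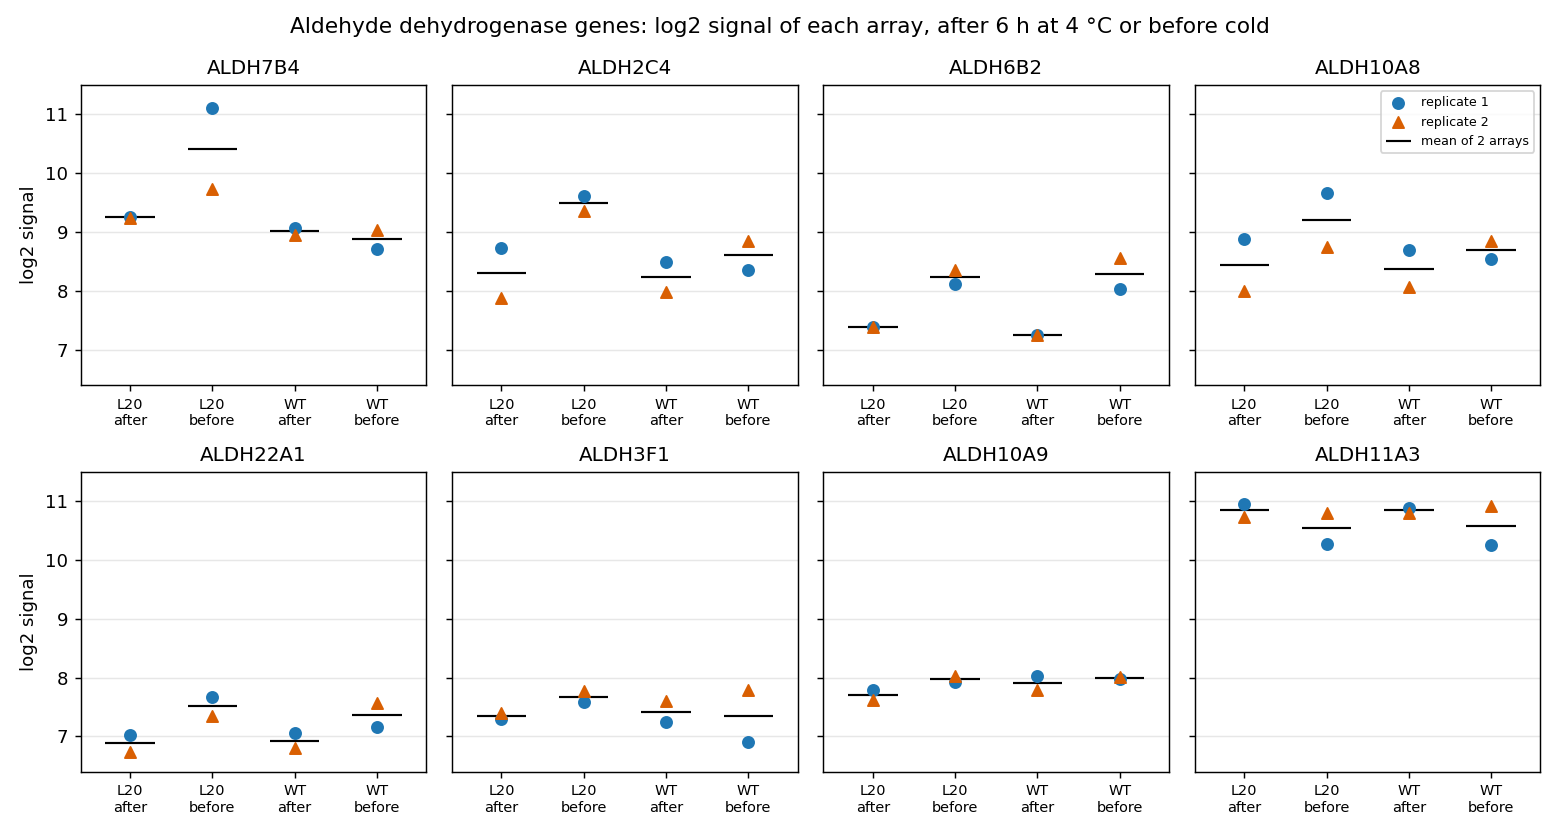
Log2 signal (vertical axis) of the 8 aldehyde dehydrogenase genes in L20 after cold, L20 before cold, wild type (WT) after cold and WT before cold. Circles are replicate 1, triangles replicate 2 and bars the mean of the 2 arrays; ALDH7B4 reached 11.10 in 1 unchilled L20 array, and both chilled groups of ALDH6B2 lie below both unchilled groups.

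By counts, 7 of 8 members were lower and 1 was higher in chilled than in unchilled L20, with a median difference of -0.70 against 3.25e-04 over all tested probe sets. limma called 0 of the 8, where it called 0.378% of all tested probe sets, and 0 of 8 with the replicate block, against 2.55%. In the first fit 4 of 8 had an unadjusted p under 0.05, all lower, against 5.87% of all probe sets. The arrays of chilled and unchilled L20 did not overlap for 6 of 8 members, all lower, against 18.1% of all probe sets. All 8 members were bright, at percentiles 84.1 to 99.1 of the mean signal. The shares of all probe sets, here and below, thus include many dimmer ones, and shares among equally bright probe sets were not analysed here. In wild type, 5 of 8 were lower after cold, with a median of -0.20 against 0.03; with quantile normalization 6 of 8 were lower and the median was -0.32. limma called 0 of 8, against 0.532% of all, and 1 of 8 with the block, against 1.57%. In the first fit 1 of 8 had an unadjusted p under 0.05, lower, against 2.88%. The groups lay apart for 2 of 8 members, both lower, against 12.3%.

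Before cold, 5 of 8 members were higher in L20 than in wild type, with a median of 0.24 against 0.04 over all probe sets; with quantile normalization 4 of 8 were higher and the median was 0.10. limma called 0 of 8, against 0.0176% of all probe sets, and 0 of 8 with the block, against 0.167%. In the first fit an unadjusted p under 0.05 was found for 2 of 8, both higher, against 3.99% of all. The groups lay apart for the same 2, against 17.4%. The members were chosen with earlier results of these data known, so these counts describe the family and are not a test of it. The comparisons also share arrays: unchilled L20 enters both the cold difference of L20 and the difference between the lines before cold.

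ALDH7B4 belongs to the antiquitin group, whose mammalian member acts in lysine breakdown, and in plants its transcript is known to follow drought, salt and abscisic acid. Its log2 signal was 9.26 and 9.24 in chilled L20, against 11.10 and 9.73 in unchilled L20. Wild type had 9.07 and 8.95 after cold, against 8.72 and 9.04 before. Both unchilled L20 arrays were above the other 6, and replicate 1 was far above replicate 2.

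Before cold ALDH7B4 was 2.90-fold higher in L20 than in wild type, a log2 difference of 1.54 ± 0.41 (SE, 95% interval 0.56 to 2.51), which missed the test (limma adjusted p = 0.514, and 0.220 with the replicate block). Same-numbered arrays differed by 2.39 in replicate 1 and by 0.69 in replicate 2; values of such pairs are given below with replicate 1 first. Without replicate 1 of unchilled L20 the difference was 0.85 ± 0.24, and without its replicate 2 it was 2.22 ± 0.24. Without replicate 1 of unchilled wild type, the array with the low upper quartile, it was 1.37 ± 0.54, and quantile normalization gave 1.33 ± 0.31. The gene thus stood higher in unchilled L20 under each of these settings, at a size that turned on 1 array.

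With cold the ALDH7B4 difference was -1.17 ± 0.41 in L20 (limma adjusted p = 0.384) and 0.13 ± 0.41 in wild type (limma adjusted p = 1.00), or -0.0078 in wild type after quantile normalization. In L20 it was -0.48 ± 0.24 without replicate 1 of the unchilled group (limma adjusted p = 0.784) and -1.85 ± 0.24 without its replicate 2 (limma adjusted p = 0.0844). The cold response of L20 minus that of wild type was -1.30 ± 0.58, with a 95% interval from -2.67 to 0.08, and missed the test (limma adjusted p = 1.00); it was -0.61 without replicate 1 of unchilled L20 and -1.98 without its replicate 2. After cold L20 was 0.24 ± 0.41 above wild type, with an interval from -0.73 to 1.21.

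Of the 2 lysine breakdown loci fixed as a list, both were measured and limma called 0. AT4G33150 (LKR/SDH), a double enzyme that opens lysine breakdown, had 5.17 and 5.53 in chilled L20, against 6.41 and 6.24 in unchilled L20. In wild type it had 5.47 and 5.41 after cold, against 5.85 and 5.35 before. As with ALDH7B4, both unchilled L20 arrays were above the other 6. The cold difference was -0.97 ± 0.23 in L20 (limma adjusted p = 0.180, and 0.0772 with the block) and -0.16 ± 0.23 in wild type. Before cold it was 0.73 ± 0.23 higher in L20 (limma adjusted p = 0.684). The second locus, AT2G24580, differed by -0.0088 ± 0.21 in L20 and by 0.10 ± 0.21 in wild type with cold. Before cold it differed by -0.08 ± 0.21 between the lines. It was dim, at 3.7 to 4.1 over the arrays, and a filter on the dimmest 20% of probe sets removed it, so a change could be missed.

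**Figure D2:**
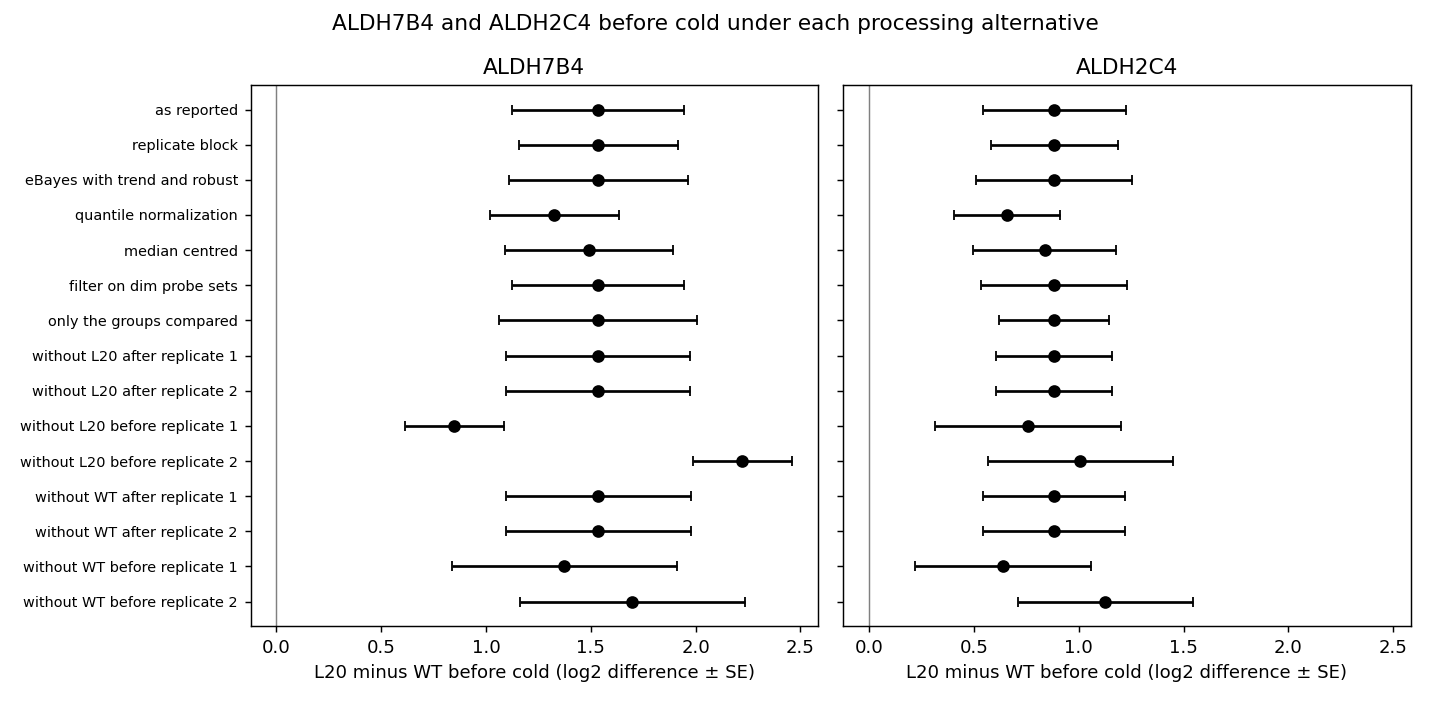
L20 minus wild type (WT) before cold, as a log2 difference with its standard error (horizontal axis), for ALDH7B4 and ALDH2C4, as reported and under each of 14 alternatives (rows). All values are above 0; those of ALDH7B4 run from 0.85 without replicate 1 of unchilled L20 to 2.22 without its replicate 2, and those of ALDH2C4 from 0.64 to 1.13.

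ALDH2C4 (REF1) oxidises coniferaldehyde and sinapaldehyde to ferulic and sinapic acid, the acids of the ultraviolet-absorbing esters of the leaf. Its log2 signal was 8.74 and 7.88 in chilled L20, against 9.61 and 9.36 in unchilled L20. In wild type it was 8.48 and 7.98 after cold, against 8.36 and 8.85 before. Both unchilled L20 arrays were above all others, while the chilled and unchilled wild-type arrays overlapped.

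Before cold ALDH2C4 was 1.84-fold higher in L20, by 0.88 ± 0.34 (95% interval 0.07 to 1.69), which missed the test (limma adjusted p = 0.849, and 0.355 with the block). It was higher in both same-numbered pairs, by 1.25 and 0.51, and by 0.64 ± 0.42 without replicate 1 of unchilled wild type. With cold it was 2.27-fold lower in L20, with a difference of -1.18 ± 0.34 (95% interval -1.99 to -0.37, limma adjusted p = 0.276), and the pairs stood at -0.88 and -1.48. Leaving out an array of chilled L20 gave -1.61 without replicate 1 and -0.75 without replicate 2. In wild type the cold difference was -0.38 ± 0.34, and the pairs went opposite ways, at 0.12 and -0.87. The cold response of L20 minus that of wild type was -0.80 ± 0.48 and missed (limma adjusted p = 1.00); it was -1.23 without replicate 1 of chilled L20 and -0.38 without its replicate 2.

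Of 21 phenylpropanoid and sinapate loci, 2 were measured and limma called 0 in either line with cold, with and without the block. Without the block 0 had an unadjusted p under 0.05. With it the limma unadjusted p of HCT was 0.0397 in L20 and 0.0444 in wild type. HCT, the shikimate transferase upstream of lignin and sinapate esters, was 0.52 ± 0.24 higher after cold in L20 and 0.51 ± 0.24 higher in wild type. CCR2, a cinnamoyl-CoA reductase that makes the aldehydes on which ALDH2C4 acts, differed by 0.42 ± 0.20 in L20 and by -0.0042 ± 0.20 in wild type. In L20 both genes stood above their unchilled level and ALDH2C4 stood below its own, but HCT was higher by about as much in wild type. CCR2 was dim, at 4.17 to 4.91 over the arrays, where the lowest median of an array was 4.95. Its pairs in L20 stood at 0.73 and 0.10.

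**Figure D3:**
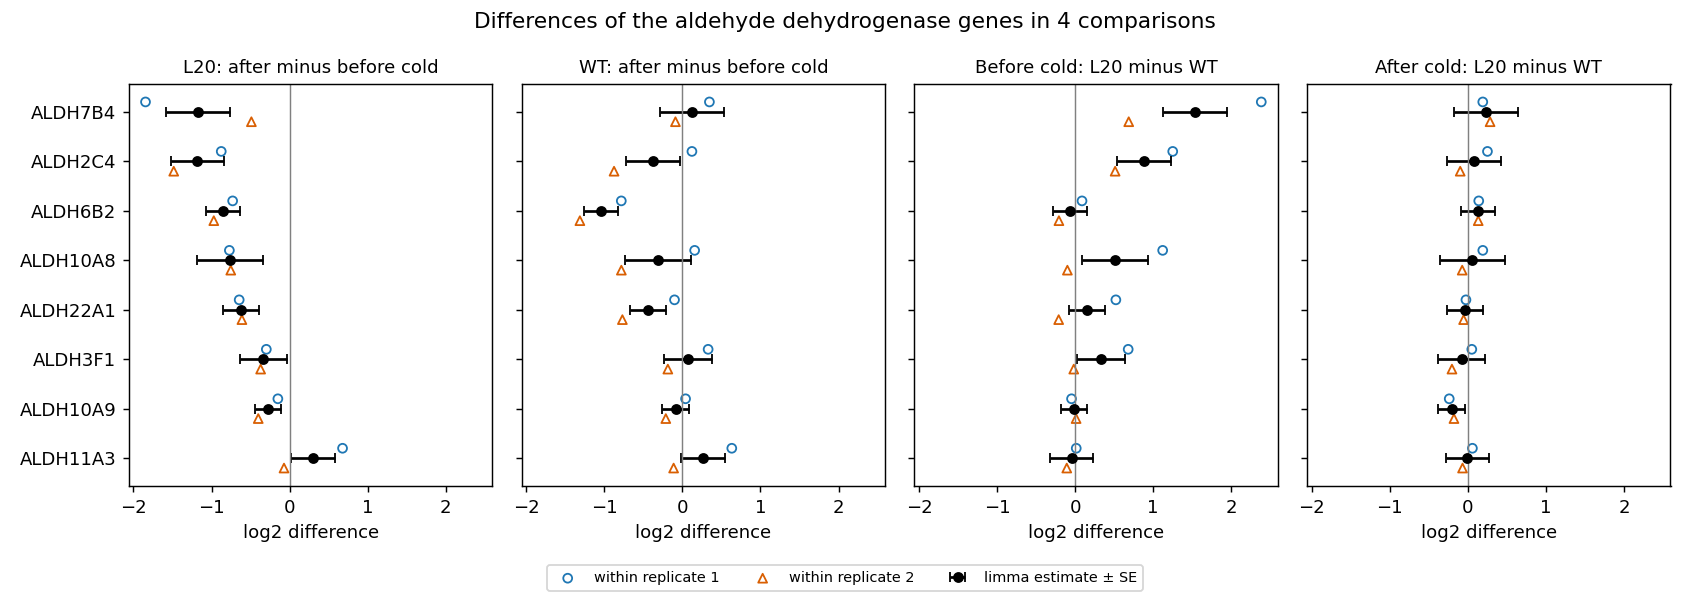
Log2 differences (horizontal axis) of the 8 genes in 4 comparisons, which are cold in L20, cold in wild type (WT), L20 minus WT before cold and L20 minus WT after cold. Filled points with bars are limma estimates with their standard error, and open circles and triangles are the differences between arrays of replicate 1 and of replicate 2; with cold in L20, 7 of 8 estimates are below 0, and after cold no estimate is beyond 0.24 on either side.

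ALDH6B2 encodes the mitochondrial methylmalonate-semialdehyde dehydrogenase of valine breakdown. Its log2 signal was 7.39 and 7.38 in chilled L20, against 8.12 and 8.35 in unchilled L20. Wild type had 7.25 and 7.25 after cold, against 8.03 and 8.56 before. All 4 chilled arrays were below all 4 unchilled ones, and the chilled replicates lay close together.

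In wild type ALDH6B2 was 2.07-fold lower after cold, with a difference of -1.05 ± 0.22 (95% interval -1.56 to -0.53). It missed the test as planned (limma adjusted p = 0.155) and fell with the replicate block (limma adjusted p = 0.0492), a fit in which 1.57% of all probe sets were called; its adjusted p lay between 0.0492 and 0.708 under the 14 alternatives. It was lower in both same-numbered pairs, at -0.78 and -1.31. In L20 it was 1.80-fold lower, with a difference of -0.85 ± 0.22 (limma adjusted p = 0.213, and 0.0660 with the block) and pairs at -0.73 and -0.97. The cold responses differed by 0.20 ± 0.31, with a 95% interval from -0.53 to 0.93. Between the lines the difference was -0.06 ± 0.22 before cold, and 0.14 ± 0.22 after cold.

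Of 17 loci of branched-chain amino acid catabolism, 10 were measured. With cold, 8 of the 10 were lower in L20, with a median of -0.41, and 7 of 10 were lower in wild type, with a median of -0.33. limma called 0 of 10 in each line with and without the block. Without the block an unadjusted p under 0.05 was found in L20 for 3 of 10, all lower, against 5.87% of all probe sets. In wild type, also without the block, it was found for 2 of 10 that were lower, against 2.88%, and for AT2G26800, which was higher. The largest differences in both lines were those of MCCA and MCCB, the subunits of the 3-methylcrotonyl-CoA carboxylase of leucine breakdown. AT2G26800 stood at 0.53 ± 0.27 in L20 and at 0.80 ± 0.27 in wild type. IVD, the isovaleryl-CoA dehydrogenase of leucine breakdown, had 7.01 and 8.67 in chilled L20, against 7.64 and 9.27 in unchilled L20, and 6.64 and 8.34 in chilled wild type, against 7.26 and 9.05 in unchilled wild type. Replicate 2 was above replicate 1 in every group, and the cold differences of the pairs were close to each other, at -0.63 and -0.60 in L20 and at -0.62 and -0.71 in wild type. IVD differed by -0.62 ± 0.93 in L20 and by -0.66 ± 0.93 in wild type; with the block the SE was 0.13 and the limma adjusted p was 0.0724 in L20 and 0.0782 in wild type, the lowest of the list in each line.

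MCCA had 6.54 and 6.45 in chilled L20, against 8.07 and 7.57 in unchilled L20, and 6.52 and 6.24 in chilled wild type, against 6.98 and 8.15 in unchilled wild type. The chilled arrays were below the unchilled ones in both lines. The differences were -1.33 ± 0.38 in L20 (limma adjusted p = 0.274) and -1.18 ± 0.38 in wild type (limma adjusted p = 0.466). MCCB differed by -0.85 ± 0.26 in L20 (limma adjusted p = 0.30) and by -0.83 ± 0.26 in wild type (limma adjusted p = 0.436). In wild type the MCCA difference was -1.77 without replicate 1 of the unchilled group, the array with the low upper quartile, and -0.60 without its replicate 2, and that of MCCB was -1.11 and -0.55. Like ALDH6B2, both stood lower after cold in every same-numbered pair.

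**Figure D4:**
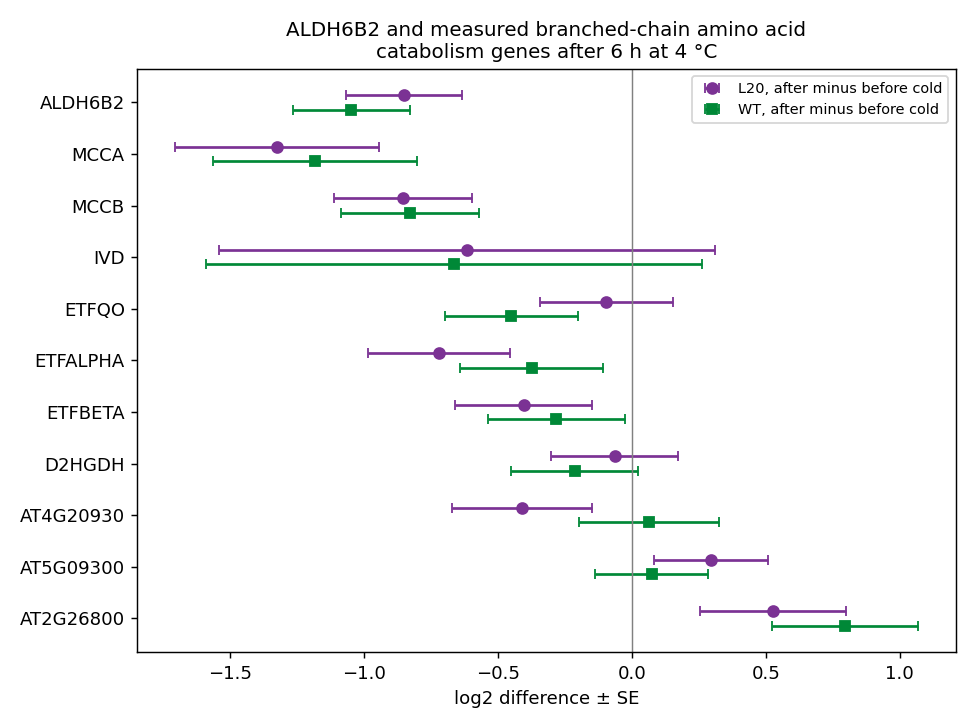
Cold differences (after minus before cold, log2, with standard error, horizontal axis) of ALDH6B2 and the 10 measured genes of branched-chain amino acid catabolism, in L20 (circles) and in wild type (WT, squares). ALDH6B2, MCCA, MCCB, ETFALPHA and ETFBETA lie below 0 in both lines by more than their standard error, and AT2G26800 lies above 0 by more than its own in both.

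ALDH10A8 and ALDH10A9 encode aminoaldehyde dehydrogenases, which oxidise the aldehydes left by polyamine breakdown. ALDH10A8 had 8.89 and 7.99 in chilled L20, against 9.66 and 8.75 in unchilled L20. Wild type had 8.70 and 8.06 after cold, against 8.54 and 8.85 before. Replicate 1 was above replicate 2 in every group except unchilled wild type, and chilled and unchilled arrays overlapped in both lines.

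The cold difference of ALDH10A8 in L20 was -0.76 ± 0.42 (limma adjusted p = 0.702, and 0.277 with the block). It was nearly the same in both pairs, at -0.77 and -0.75. Leaving out an array of unchilled L20 gave -0.31 without replicate 1 and -1.22 without replicate 2. Leaving out 1 array also breaks the pairs, and replicate 1 lay above replicate 2 by 0.91 in unchilled and 0.89 in chilled L20. In wild type it was -0.31 ± 0.42, with pairs at 0.16 and -0.78. Before cold L20 was 0.51 ± 0.42 above wild type, but the pairs stood at 1.12 and -0.10, and the value without replicate 1 of unchilled L20 was 0.06. ALDH10A9 varied little: it had 7.78 and 7.62 in chilled L20, against 7.93 and 8.02 in unchilled L20, and 8.02 and 7.80 in chilled wild type, against 7.98 and 8.01 in unchilled wild type. Its cold differences were -0.28 ± 0.17 in L20 and -0.09 ± 0.17 in wild type, and after cold L20 was -0.21 ± 0.17 from wild type.

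Amine oxidases release the aldehydes on which the ALDH10 enzymes act. Of 8 such loci 2 were measured and limma called 0 in either line with cold, with and without the block. AT2G42490 was lower after cold in both lines, at -0.68 ± 0.23 in L20 (limma adjusted p = 0.361) and at -0.60 ± 0.23 in wild type (0.637). Its pairs stood at -0.73 and -0.63 in L20 and at -0.63 and -0.57 in wild type. With the block the SE was 0.14, and the limma adjusted p was 0.0714 in L20 and 0.1345 in wild type. The copper amine oxidase gene CuAO1 differed by -0.30 ± 0.25 in L20 and by -0.03 ± 0.25 in wild type.

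ALDH22A1 is the member of a family found in plants whose substrate is not established. It had 7.03 and 6.74 in chilled L20, against 7.68 and 7.36 in unchilled L20, and 7.05 and 6.80 in chilled wild type, against 7.15 and 7.56 in unchilled wild type. The chilled arrays were below the unchilled ones in both lines. The cold difference was -0.63 ± 0.23 in L20 (limma adjusted p = 0.412) and -0.43 ± 0.23 in wild type (0.975), where it was -0.64 without replicate 1 of the unchilled group and -0.23 without its replicate 2. Before cold the lines differed by 0.16 ± 0.23, or by -0.0055 after quantile normalization.

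ALDH3F1 belongs to a group that oxidises medium- and long-chain aldehydes. It had 7.29 and 7.40 in chilled L20, against 7.59 and 7.77 in unchilled L20, and 7.24 and 7.60 in chilled wild type, against 6.91 and 7.79 in unchilled wild type. The spread of unchilled wild type covered all other arrays, and the cold differences were -0.34 ± 0.30 in L20 and 0.07 ± 0.30 in wild type.

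ALDH11A3 encodes the cytosolic non-phosphorylating glyceraldehyde-3-phosphate dehydrogenase, which yields NADPH. It was the only member above its unchilled level in L20, by 0.30 ± 0.28, and it stood at 0.26 ± 0.28 in wild type. It had 10.95 and 10.73 in chilled L20, against 10.27 and 10.81 in unchilled L20, and 10.89 and 10.80 in chilled wild type, against 10.26 and 10.91 in unchilled wild type. Replicate 1 was higher after cold, by 0.68 in L20 and 0.63 in wild type, and replicate 2 was not, at -0.07 in L20 and -0.11 in wild type. GAPC2, a phosphorylating enzyme for the same substrate and the 1 measured of 7 such loci, differed by 0.16 ± 0.26 in L20 and by 0.13 ± 0.26 in wild type with cold, and limma did not call it.

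Of 6 loci for other enzymes of reactive aldehydes, 2 were measured. AOR, a reductase of unsaturated carbonyls, had 10.21 and 9.55 in chilled L20, against 8.39 and 7.92 in unchilled L20, and 10.11 and 9.60 in chilled wild type, against 8.63 and 9.27 in unchilled wild type. All chilled arrays were above all unchilled ones. AOR was 1.73 ± 0.35 higher after cold in L20 (limma adjusted p = 0.117) and rose with the replicate block (0.0491, limma adjusted p) and with quantile normalization (0.0164, limma adjusted p). In wild type it was 0.91 ± 0.35 higher (limma adjusted p = 0.636). AER, an alkenal reductase, differed by -0.01 ± 0.47 in L20 and by -0.17 ± 0.47 in wild type.

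The remaining lists held few measured genes, and limma called 0 of them with cold in either line, with and without the block. Without the block none had an unadjusted p under 0.05. Of 8 proline loci 2 were measured. DELTA-OAT, an ornithine aminotransferase, differed by -0.38 ± 0.45 in L20 and by -0.47 ± 0.45 in wild type. In wild type its pairs stood at -0.40 and -0.55, and with the block its limma unadjusted p was 0.0375. AT5G38710 differed by 0.14 ± 0.18 in L20 and 0.36 ± 0.18 in wild type. It was dim, at 3.89 to 4.55 over the arrays, where the lowest median of an array was 4.95. Of 8 fermentation and acetate loci 2 were measured: the pyruvate decarboxylase gene PDC2 differed by 0.26 ± 0.32 in L20 and by 0.72 ± 0.32 in wild type, and the acetyl-CoA synthetase gene ACS by -0.38 ± 0.25 in L20 and -0.25 ± 0.25 in wild type. Of 8 loci of the GABA shunt 0 were measured.

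After cold the difference between L20 and wild type was above 0 for 4 of the 8 ALDH genes and below 0 for 4, with a median of 0.03 against 0.0026 over all probe sets. It ran from -0.21 for ALDH10A9 to 0.24 for ALDH7B4. limma called 0 of 8 and 0% of all probe sets. An unadjusted p under 0.05 was seen for 0 of 8, against 0.0835% of all. The arrays lay apart for 3 of 8 genes, against 14.8% of all probe sets. Of these, ALDH7B4 and ALDH6B2 were higher in L20 and ALDH10A9 was lower. For ALDH2C4 the difference was 0.08 ± 0.34, with a 95% interval from -0.73 to 0.89.

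The cold responses of the lines were set against each other in 1 test per gene. The response of L20 minus that of wild type was below 0 for 6 of 8 members, with a median of -0.30 against -0.04 over all probe sets, or of -0.15 after quantile normalization. limma called 0 of 8 and 0% of all probe sets. Without the block the unadjusted p was under 0.05 for 0 of 8, against 2.18% of all. With it the limma unadjusted p of ALDH7B4 was 0.0493. After ALDH7B4 and ALDH2C4 the largest values were those of ALDH10A8 at -0.45 ± 0.60 and ALDH3F1 at -0.41 ± 0.43.

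The genes whose log2 signals followed 3 of the members most closely over the 8 arrays were sought among 13349 others. These correlations describe 8 arrays that share groups, replicate numbers and normalization. They are also the highest of 13349 values each, so they are high in part through selection. ALDH2C4 was followed by AT1G02305 (r = 0.984), AT1G43580 (0.983) and AT3G52760 (0.974). ALDH7B4 was followed by AT4G10970 (0.983), AT5G14520 (PESCADILLO, 0.979) and TBL30 (0.979). It stood at 11.10 in replicate 1 of unchilled L20 and at 8.72 to 9.73 in the other arrays. How far its correlations rest on that 1 array was not tested. ALDH6B2 was followed by AT5G19340 (0.997), AT5G13140 (0.989) and AKINBETA1 (0.988), which encodes a subunit of the SnRK1 energy-sensing kinase. AKINBETA1 differed by -1.45 with cold in L20 and by -1.70 in wild type, where ALDH6B2 differed by -0.85 in L20 and -1.05 in wild type. TBL30 differed by 0.21 between the lines before cold, where ALDH7B4 differed by 1.54.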

How the data were processed

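Total RNA of whole seedlings was hybridised to 8 Affymetrix arrays. The authors deposited 1 table of log2 signals for 22810 probe sets; RMA is named per the submitters' processing notes, and the sources used here give no version. RMA removes changes shared by most genes. The 64 control probe sets entered no test. Gene names came from the platform annotation, updated by Entrez identifier through RefSeq names of TAIR10.1: 13513 probe sets had 1 gene (13436 matched), 503 several and 8730 none.

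Sample titles gave the groups and replicate numbers. limma 3.58.1 in R 4.3.3 fitted a mean per group over 8 arrays (lmFit, eBayes, two-sided, Benjamini-Hochberg over 22746 probe sets). Its estimates were checked on simulated arrays. Their noise was independent, without a shared replicate effect, so the p-values were not checked for these arrays. Replicate 1 minus replicate 2 correlated between every pair of groups (0.341 to 0.837 over the tested probe sets). Over the control probe sets these correlations were 0.430 to 0.878. The replicate number was therefore entered as a block in an alternative fit only, a pairing from the data that the labels do not state. Estimates, SEs and p-values given without mention of the block come from fits without it.

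The members and gene lists were chosen with earlier results of these data known. The rule for naming took all members, the 3 genes most correlated with ALDH2C4, ALDH7B4 and ALDH6B2, and per list the called genes or else the 2 largest differences with cold; AT2G26800, IVD, ETFALPHA, ETFBETA and the cold markers were named after their values were seen. Alternatives were the block, trend and robust settings, quantile normalization, median centring, a filter on the dimmest 20% of probe sets, only the groups compared, and leaving out each array.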

Additional observations from a re-analysis of the deposited data

How the results depend on the processing

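Of 552 recomputed differences of the 8 ALDH genes (40 differences under up to 14 settings), 518 kept their direction and their side of the threshold, 33 changed sign and 1 became a call, ALDH6B2 with cold in wild type with the replicate block. With that block the paired fit called 1 of 8 members there, and no other ALDH call changed. Over all probe sets the calls with cold in L20 were 86, but 580 with the block, 204 with quantile normalization and 0 with only the groups compared. With cold in wild type they were 121, but 357, 183 and 65, and for L20 minus wild type before cold 4, but 38, 17 and 1. With 1 array left out they ran from 0 to 34 with cold in L20, from 0 to 91 in wild type and stayed at 0 between the lines before cold. The cause was not tested. The groups compared alone were not a separate setting for the difference of the cold responses, and no member had a second probe set to try.

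With quantile normalization, differences turned to 0.095 for AER with cold in L20, -0.0078 for ALDH7B4 and -0.027 for GAPC2 with cold in wild type, and -0.0055 for ALDH22A1 before cold. Median centring gave 0.011 for AER and 0.013 for AT2G24580 with cold in L20. Leaving out 1 array also breaks the same-numbered pairs, and these fits had no block. A difference between replicates thus enters the ranges below. DELTA-OAT in wild type, for example, stood at -0.40 and -0.55 in its pairs. The sign turned with 1 array left out for the following. With cold in L20 the ranges were -0.19 to 0.17 for AT2G24580, -0.013 to 0.29 for AT5G38710, -0.24 to 0.77 for PDC2 and -0.82 to 0.80 for AER. With cold in wild type they were -0.63 to 0.0037 for ALDH10A8, -0.20 to 0.026 for ALDH10A9, -0.067 to 0.59 for ALDH11A3, -0.37 to 0.51 for ALDH3F1, -0.033 to 0.29 for ALDH7B4, -0.076 to 0.068 for CCR2, -0.41 to 0.089 for AT4G33150, -0.084 to 0.28 for AT2G24580, -1.0 to 0.053 for DELTA-OAT, -0.23 to 0.49 for GAPC2 and -0.33 to 0.27 for CuAO1. For L20 minus wild type before cold they were -0.060 to 0.029 for ALDH10A9, -0.37 to 0.28 for ALDH11A3, -0.049 to 0.36 for ALDH22A1, -0.11 to 0.77 for ALDH3F1, -0.32 to 0.21 for ALDH6B2 and -0.26 to 0.11 for AT2G24580. After cold they were -0.39 to 0.51 for ALDH10A8, -0.11 to 0.10 for ALDH11A3, -0.18 to 0.11 for ALDH22A1, -0.35 to 0.51 for ALDH2C4 and -0.26 to 0.11 for ALDH3F1. For the difference of the cold responses they were -0.91 to 0.0051 for ALDH10A8, -0.29 to 0.37 for ALDH11A3, -0.40 to 0.011 for ALDH22A1, -0.85 to 0.031 for ALDH3F1 and -0.069 to 0.46 for ALDH6B2. Background levels per probe were not analysed here.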

Other observations

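Over the 8 arrays, some members followed each other more closely than others. ALDH2C4 correlated at 0.902 with ALDH10A8 and at 0.887 with ALDH22A1, and ALDH10A8 at 0.864 with ALDH22A1. ALDH6B2 correlated at 0.844 with ALDH22A1 and at 0.304 with ALDH7B4. ALDH11A3 had a correlation below 0 with each of the other members except ALDH3F1, at 0.376. The 2 aminoaldehyde dehydrogenase genes, ALDH10A8 and ALDH10A9, correlated at 0.523. These values describe 8 arrays in 4 groups that share replicate numbers and normalization, and no p is given.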
